A study of Oryza sativa with 4 samples.

Results

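Jasmonate is a plant hormone made from linolenic acid of chloroplast membranes. Lipoxygenases (LOX), allene oxide synthases (AOS), an allene oxide cyclase (AOC) and an oxophytodienoate reductase (OPR) act in turn. Beta-oxidation shortens the OPR product to jasmonate, and JAR1 then joins jasmonate to isoleucine, which gives the active hormone. The active hormone brings the F-box receptor COI together with JAZ proteins, which hold back MYC transcription factors, and the JAZ proteins are degraded. JAZ genes and many synthesis genes are themselves switched on by the hormone, and in leaves the pathway is known for wounding, herbivores, pathogens and senescence.

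The genes described are those whose symbol or synonym in the rice gene table is JAZ, TIFY, LOX, AOS, AOC, OPR, JAR or COI followed by a number, or a number and a letter, once an Os prefix is removed. These 8 name families hold 42 of the 39387 genes in that table, and 38 of the 42 have a probe set assigned to them alone on the array. The brightest probe set was used for the 4 genes with several. LOX4, TIFY1B, OsOPR3 and a further locus with the synonym OPDAR1 have no probe set of their own and were not analysed here. The name rule was not based on signal, and it also takes in LOX, OPR and TIFY genes that are not known as jasmonate genes.

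The 4 arrays measured leaf RNA of rice (Oryza sativa L. cv Nipponbare), 2 from plants transformed with the empty vector pActnos/Hmz and 2 from plants transformed with pActnos/Hmz-OsRR6, at an age of 75 days. OsRR6 belongs to the type-A response regulators, which dampen the response to cytokinin. All plants were primary transformants of the T0 generation, selected on hygromycin and grown in hydroponics to heading. Days had 12 h light (30 °C) and 12 h dark (25 °C). For all 4 samples the labels also give 6 weeks for callus and 7 days for agar. The labels do not name the promoter of the construct or say whether the replicates were separate plants, so p-values measure only how far these samples spread, which may be technical.

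The arrays could be compared as deposited. Values are linear array signals with a trimmed mean of 500.1 on each array, and 4 arrays limit the precision. The probe set of OsRR6 (RR6) read 2559 and 2733 in the control leaves and 2264 and 1989 on the arrays labelled overexpressor. Its log2 change was -0.32 (SE 0.10, adjusted p = 0.0597 in limma), so no higher signal was seen. Whether this probe set lies in the part of the transcript that the construct carries is not given, and if it lies outside, it does not check the label. Every direction below is that of the arrays labelled overexpressor, called overexpressor arrays for short. Replicate arrays correlated across probe sets at 0.988 (control) and 0.975 (overexpressor) on the log2 scale. Background, the 95th percentile of control probe sets for transcripts that are neither from rice nor spiked in, lay between 30.0 and 43.4. At an adjusted p of 0.05, 13.1% of all tested probe sets were lower and 15.4% higher. Of the marker list for leaf blade 5 of 7 tested genes were lower, and its summed level went from 101768 and 105402 to 73703 and 70586. Of the anther and pollen list 5 of 10 were lower, and its summed level went from 15420 and 16099 to 2334 and 2006. Of the list for callus and dividing tissue 4 of 4 were higher, and its summed level went from 1833 and 2008 to 3637 and 5079. The root list had 1 tested gene, IRT1, which did not pass, with a summed list level of 251 and 207 against 215 and 221. RTS, the gene with the lowest change in the anther and pollen list, read 3702 and 4044 in the controls. It lay at background (10.8 and 3.8) on both overexpressor arrays. Of the 10 tested genes of that list 0 were called higher, and 3 read higher in every pair of arrays, against 39.7% of all tested probe sets. The part of these marker changes in the jasmonate results was not tested. In RNA from whole leaves, fewer cells of a type and less RNA per cell cannot be told apart.

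Transcripts of jasmonate synthesis, conjugation and repression were mostly lower on the overexpressor arrays. Of the 32 members bright enough to be tested 22 were lower and 2 higher at an adjusted p of 0.05, and 8 did not pass. Among all 28629 tested probe sets 13.1% were lower and 15.4% higher by the same rule. The median log2 change of the tested members was -0.81, against 0.08 over all tested probe sets. In every pair of an overexpressor and a control array 28 of the 32 read lower and 3 read higher, against 28.3% and 39.7% of all tested probe sets. For 6 members every pair was at least 2-fold lower, against 3.45% of all tested probe sets. A lower call together with a fitted change of at least 2-fold was reached by 8 members (JAZ5, JAZ8, JAZ9, JAZ11, JAZ13, LOX5, AOS1 and AOS2), against 4.98% of all tested probe sets, and a higher one by 0, against 4.35%. Since 31 of the 32 were above both background and the filter on all 4 arrays, the filter did not choose them through a single group. JAZ2 lay below both on overexpressor replicate 1 alone. These shares are descriptions, because the genes were chosen with earlier results of the data known.

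**Figure D1:**
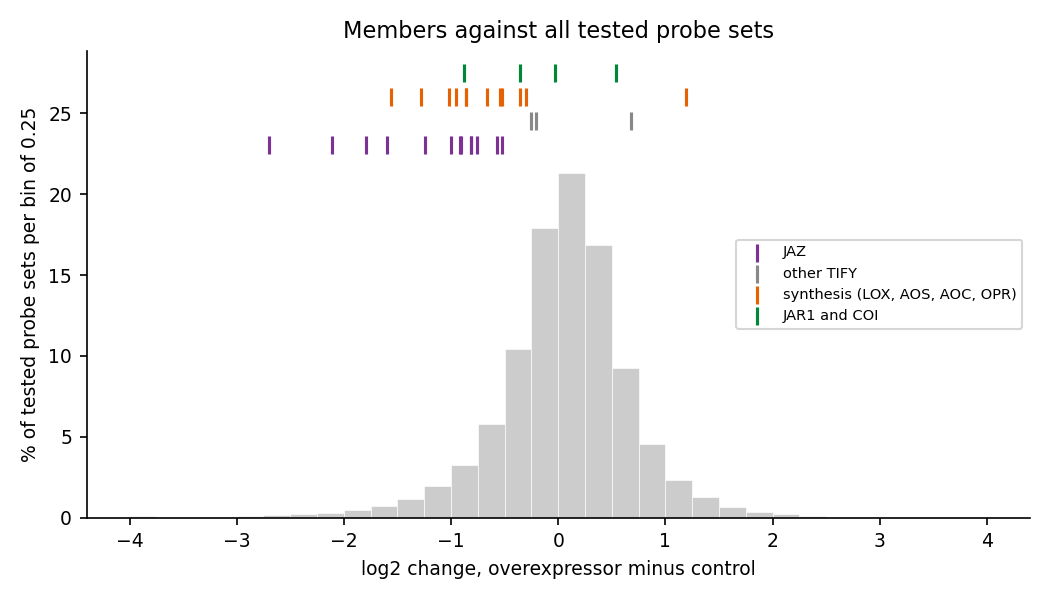
Distribution of the log2 change (overexpressor minus control, x axis) over the 28629 tested probe sets as percent per bin of 0.25 (y axis, grey bars, with values beyond 4 in the end bins), and the 32 tested members as ticks by role. The 13 JAZ ticks all lie left of 0, and the median of the members is -0.81 against 0.08 for all tested probe sets.

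The scale of the arrays bears on the sign of the small changes. Scaling to 27 hybridisation spikes, transcripts added in known amounts, raised every log2 change by 0.31 and moved the median of all tested probe sets to 0.40. The sign of TIFY1A, TIFY2A, LOX8 and COI1B then turned, 16 members remained lower and 4 were higher, and 7.38% and 40.4% of all tested probe sets were lower and higher. The median of the tested members was -0.50 on that scale. With median centring it was -0.92, with 23 lower and 2 higher, against 16.2% and 10.6% of all tested probe sets. No called member changed sign under any of the 16 alternatives run.

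**Figure D2:**
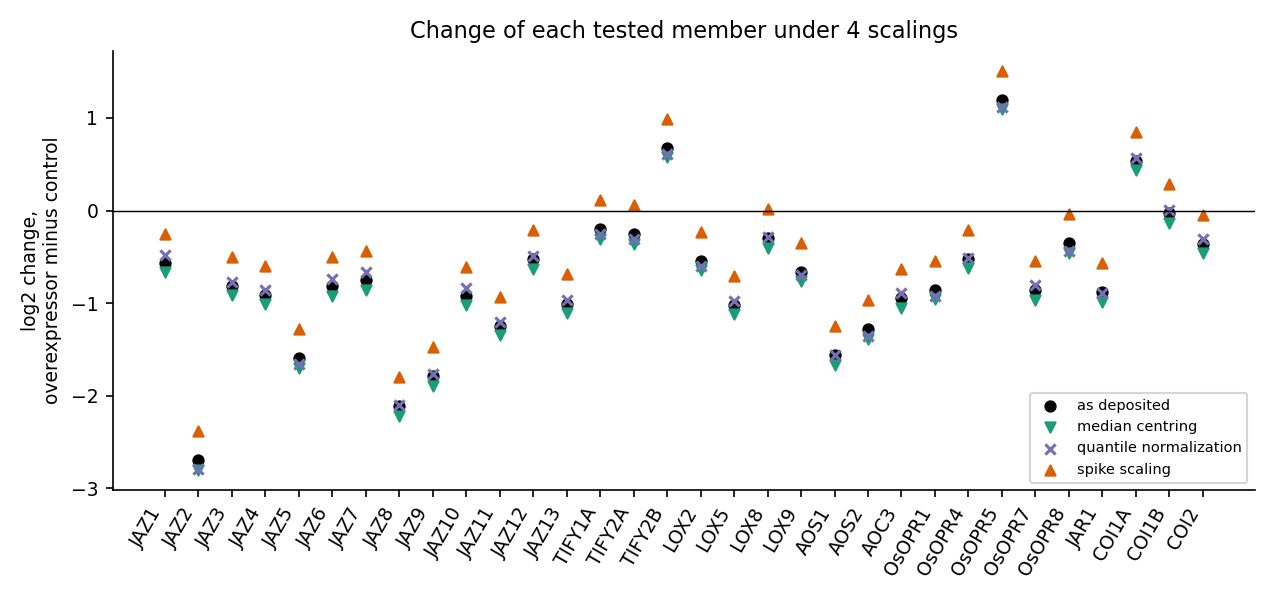
Log2 change (overexpressor minus control, y axis) of each of the 32 tested members (x axis) with the values as deposited, after median centring, after quantile normalization and after scaling to the spikes. Spike scaling lifts all points by 0.31, and the median of the members stays below 0 at -0.50.

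Some lipoxygenases open the pathway by adding oxygen to linolenic acid, and others serve another branch of fatty acid oxidation. The name rule does not tell them apart. LOX5 (LOC4333823) read 7452 and 8134 in the control leaves and 3916 and 3756 on the arrays labelled overexpressor (-1.02, SE 0.08, adjusted p = 0.000703 in limma). The groups did not overlap, and both overexpressor arrays lay close to each other. LOX5 lies near LOX3 and LOX4 in the genome, and its name does not say which branch it serves. LOX2 read 915 and 969 against 650 and 640 (-0.54, SE 0.11, adjusted p = 0.0150), again with groups apart. Its call ended after spike scaling (adjusted p = 0.165) and without control replicate 1 (0.118) or control replicate 2 (0.168).

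Neighbouring genes LOX8 and LOX9 did not pass. LOX8 (CM-LOX1) read 2422 and 1871 in the control leaves and 1531 and 1951 on the overexpressor arrays, and its groups overlapped (-0.30, 95% interval -0.70 to 0.10, adjusted p = 0.224). LOX9 (CM-LOX2) read 1649 and 1592 against 805 and 1295. Its groups were apart, but the overexpressor arrays differed 1.61-fold (-0.66, 95% interval -1.18 to -0.15, adjusted p = 0.0607). LOX9 passed with median centring (adjusted p = 0.0477) and, barely, with cyclic loess (-0.70), but had a change of -0.41 (0.195) with the mean of its probe sets. Its change was -0.32 without overexpressor replicate 1 and -1.01 without overexpressor replicate 2, where the spread comes from the control pair alone. In the same fits LOX8 had changes of -0.13 and -0.47. LOX3, a 9-lipoxygenase by its synonym r9-LOX1 and so of another branch of fatty acid oxidation, lay at background on all 4 arrays (between 23.6 and 33.2).

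Allene oxide synthase, a cytochrome P450 that uses the lipoxygenase product, commits it to jasmonate. AOS1 (LOC4334233, also PRECOCIOUS) read 3300 and 3367 in the control leaves and 965 and 1313 on the overexpressor arrays. The log2 change was -1.56 (SE 0.15, adjusted p = 0.00125), and both overexpressor arrays were far below both controls. AOS2 (LOC4332121) read 550 and 570 against 224 and 232 (-1.28, SE 0.15, adjusted p = 0.00209), with little spread within either group. AOS3 and AOS4, which lie next to each other in the genome, had almost no signal. AOS4 stayed within background on all 4 arrays (2.8 to 20.8), and AOS3 exceeded it on overexpressor replicate 1 alone, with 99.1 against 16.9 on replicate 2 and 1.9 and 24.1 on the control arrays.

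AOC3 (LOC4333201), the allene oxide cyclase known from the rice mutants cpm2 and hebiba, which lack jasmonate, was lower on both overexpressor arrays. It read 12771 and 13434 in the control leaves and 6398 and 7186 on the overexpressor arrays (-0.95, SE 0.09, adjusted p = 0.000977). OsOPR7 (LOC4345762), the reductase that acts in jasmonate synthesis in rice, read 6210 and 6065 against 3249 and 3509 (-0.86, SE 0.08, adjusted p = 0.00116). In neither gene did the groups overlap.

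The remaining OPR genes did not move as one. OsOPR1, OsOPR4, OsOPR5 and OsOPR6 lie in 1 row of neighbouring genes with OsOPR3 and OPDAR1, and are known as relatives of OsOPR7 with other or unknown substrates. OsOPR1 read 870 and 845 in the control leaves and 402 and 553 on the overexpressor arrays (-0.86, SE 0.17, adjusted p = 0.0141), and OsOPR4 read 2241 and 2467 against 1480 and 1806 (-0.52, SE 0.12, adjusted p = 0.0233). Both were lower with groups apart. OsOPR5, their neighbour, read 269.9 and 276 in the control leaves and 968 and 411 on the overexpressor arrays. That is the other direction, with a 2.36-fold gap between the overexpressor arrays (1.20, 95% interval 0.31 to 2.09, adjusted p = 0.0543). OsOPR8 read 258 and 295 against 197 and 235 (-0.36, 95% interval -0.82 to 0.11, adjusted p = 0.214), and OsOPR6 and OsOPR12 lay at background on every array.

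Several of these OPR calls changed with the arrays left out, the scaling or the model. Without control replicate 1 or 2 the change of OsOPR1 stayed at -0.84 and -0.88, while its SE rose to 0.26. That of OsOPR4 was -0.59 and -0.45, with an SE of 0.19. OsOPR1 was past the threshold neither without control replicate 1 (adjusted p = 0.0843) nor without control replicate 2 (0.0705), nor without a trend of the spread (0.0516). OsOPR4 lost its call in the same 3 fits (0.0865, 0.167 and 0.0838) and after spike scaling (0.212). OsOPR5 passed after spike scaling (1.51, adjusted p = 0.0121). Its change was 0.58 without overexpressor replicate 1 and 1.81 without overexpressor replicate 2, where the spread comes from the control pair alone. Among 12 tested genes of the synthesis families 8 were lower, 0 higher and 4 not past, with a median of -0.76. Of all tested probe sets 13.1% were lower and 15.4% higher, with a median of 0.08.

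JAR1 (LOC4339756, also GH3.5), the enzyme that joins jasmonate to isoleucine, read 2073 and 2188 in the control leaves and 1162 and 1146 on the overexpressor arrays. The log2 change was -0.88 (SE 0.09, adjusted p = 0.00167), with a difference between groups far above that within them. AOS1, AOS2, AOC3, OsOPR7 and JAR1 were thus each lower on both overexpressor arrays than on both control arrays. No gene was found by symbol for the beta-oxidation between the OPR and JAR1 steps, so that part of the pathway was not measured.

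The receptor genes did not share 1 direction. COI1A (LOC4324818) read 2750 and 2848 in the control leaves and 4329 and 3818 on the overexpressor arrays, a rise of 0.54 on the log2 scale (SE 0.09, adjusted p = 0.00860). COI1B (LOC4338955) read 7257 and 7423 against 7241 and 7144, and its change lay between -0.20 and 0.14 (95% interval, adjusted p = 0.793). COI2 (LOC4332349) read 4580 and 4482 against 3519 and 3550 (-0.36, SE 0.08, adjusted p = 0.0169). The groups of COI1A and COI2 were apart, in opposite directions, while COI1B stayed between 7144 and 7423 on all 4 arrays. After spike scaling COI1B was called higher (0.28, adjusted p = 0.0463). COI1A was no longer past the threshold without control replicate 1 (0.0802) or control replicate 2 (0.0590), and COI2 without either (0.185 and 0.147) or after spike scaling (-0.04, 0.713). Without a trend of the spread neither passed (0.0545 for COI1A and 0.0863 for COI2).

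All 13 JAZ genes, which encode the repressors, read lower on both overexpressor arrays than on both control arrays. Of all tested probe sets 28.3% did. The test called 12 of the 13 JAZ genes lower and 0 higher, against 13.1% and 15.4% of all tested probe sets, and did not call JAZ2. The median log2 change of the 13 was -0.92. After spike scaling it was -0.61, with 9 lower and 0 higher, against 7.38% and 40.4% of all tested probe sets. With a spread that does not follow the signal 6 of 13 were lower, and 13 members were lower and 1 higher, against 8.6% and 9.01% of all tested probe sets in that fit. There JAZ4, JAZ6, JAZ9, JAZ10, JAZ12 and JAZ13 lost the call. The number lower was 10 without control replicate 2 and 11 without control replicate 1, where 6.01% and 5.61% of all tested probe sets were lower. Without overexpressor replicate 1 the JAZ median was -0.66, and without overexpressor replicate 2 it was -1.18. Those fits take the spread from the control pair alone, so calls gained there add no support. That pair was the tighter, with a median absolute log2 difference of 0.115, against 0.203 in the overexpressor pair.

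JAZ8 (LOC4347164, TIFY10C) had the lowest fitted value among the called members. It read 6119 and 6563 in the control leaves and 1454 and 1465 on the overexpressor arrays, 4.33-fold lower (-2.12, SE 0.08, adjusted p = 0.000164). The 2 overexpressor arrays were 1.01-fold apart. Its relatives in the TIFY10 group changed less, a difference that was not tested. JAZ7 (TIFY10B) read 17472 and 18329 against 10678 and 10527 (-0.76, SE 0.07, adjusted p = 0.00108), and JAZ6 (TIFY10A) 12933 and 14103 against 6214 and 9448 (-0.82, SE 0.19, adjusted p = 0.0206). JAZ6 lost the call after spike scaling (0.0539) and without control replicate 2 (0.0706).

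JAZ9, JAZ11 and JAZ10, of the TIFY11 group, are direct neighbours in the genome, and all were lower. JAZ9 (LOC4331832, TIFY11A) read 4685 and 4783 in the control leaves and 858 and 2166 on the overexpressor arrays (-1.79, SE 0.38, adjusted p = 0.0166). JAZ11 (LOC4331833, TIFY11C) read 8525 and 7808 against 3387 and 3490 (-1.25, SE 0.08, adjusted p = 0.000436). JAZ10 (LOC4331834, TIFY11B) read 14328 and 14407 against 6329 and 9115 (-0.92, SE 0.16, adjusted p = 0.00892). The overexpressor arrays lay 2.52-fold apart for JAZ9 and 1.44-fold for JAZ10, but almost together for JAZ11, between its neighbours. A dimmer probe set of JAZ10 read 5593 and 5322 against 1420 and 2861 (-1.43, SE 0.29, adjusted p = 0.0146), also lower. By its name the brighter JAZ10 probe set can hybridise to several transcripts, as can those of JAZ2, JAZ4, JAZ6 and TIFY2B, so related genes may share these signals. The names of the LOX5 and OsOPR1 probe sets also mark several transcripts, but of the same gene.

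The other pair of neighbours in that group, JAZ12 and JAZ13, has 2 genes between its members. JAZ13 (TIFY11E) read 5232 and 5102 in the control leaves and 2026 and 3269 on the overexpressor arrays (2.01-fold lower, adjusted p = 0.0151). JAZ12 (TIFY11D) read 9234 and 8935 against 5543 and 7171 (-0.53, SE 0.13, adjusted p = 0.0244), also with groups apart. JAZ12 was not past the threshold after spike scaling (0.201), with no filter (0.0577), or without control replicate 1 (0.114) or control replicate 2 (0.0853).

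JAZ5 (LOC4335698, TIFY9) read 1208 and 1202 in the control leaves and 305 and 516 on the overexpressor arrays, 3.02-fold lower (-1.59, SE 0.24, adjusted p = 0.00521). Its control arrays were almost identical and both overexpressor arrays far below them. JAZ3 (TIFY6A) read 5217 and 5310 against 2622 and 3421 (-0.81, SE 0.13, adjusted p = 0.00667). JAZ4 (LOC4347000, TIFY6B) read 8265 and 8567 against 3758 and 5329 (-0.91, SE 0.16, adjusted p = 0.00854), and its second probe set read 1171 and 1091 against 515 and 441 (-1.24, SE 0.13, adjusted p = 0.00167). Both probe sets of JAZ4 were lower. JAZ1 (LOC4337240, TIFY3), known from the spikelet mutant extra glume 2, read 14730 and 14879 against 9722 and 10266 (-0.57, SE 0.07, adjusted p = 0.00285). Its call ended after spike scaling (-0.25, adjusted p = 0.0679).

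JAZ2 (LOC4342421, TIFY5) had the widest spread. It read 779 and 694 in the control leaves and 31.2 and 368 on the overexpressor arrays, so overexpressor replicate 1 lay within background and replicate 2 well above it. The log2 change of -2.70 (SE 0.97, 95% interval -5.03 to -0.37) did not pass (adjusted p = 0.0824). It was -0.99 without overexpressor replicate 1 (adjusted p = 0.000844) and -4.41 without replicate 2 (7.63e-06), since the spread then comes from the control pair alone.

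**Figure D3:**
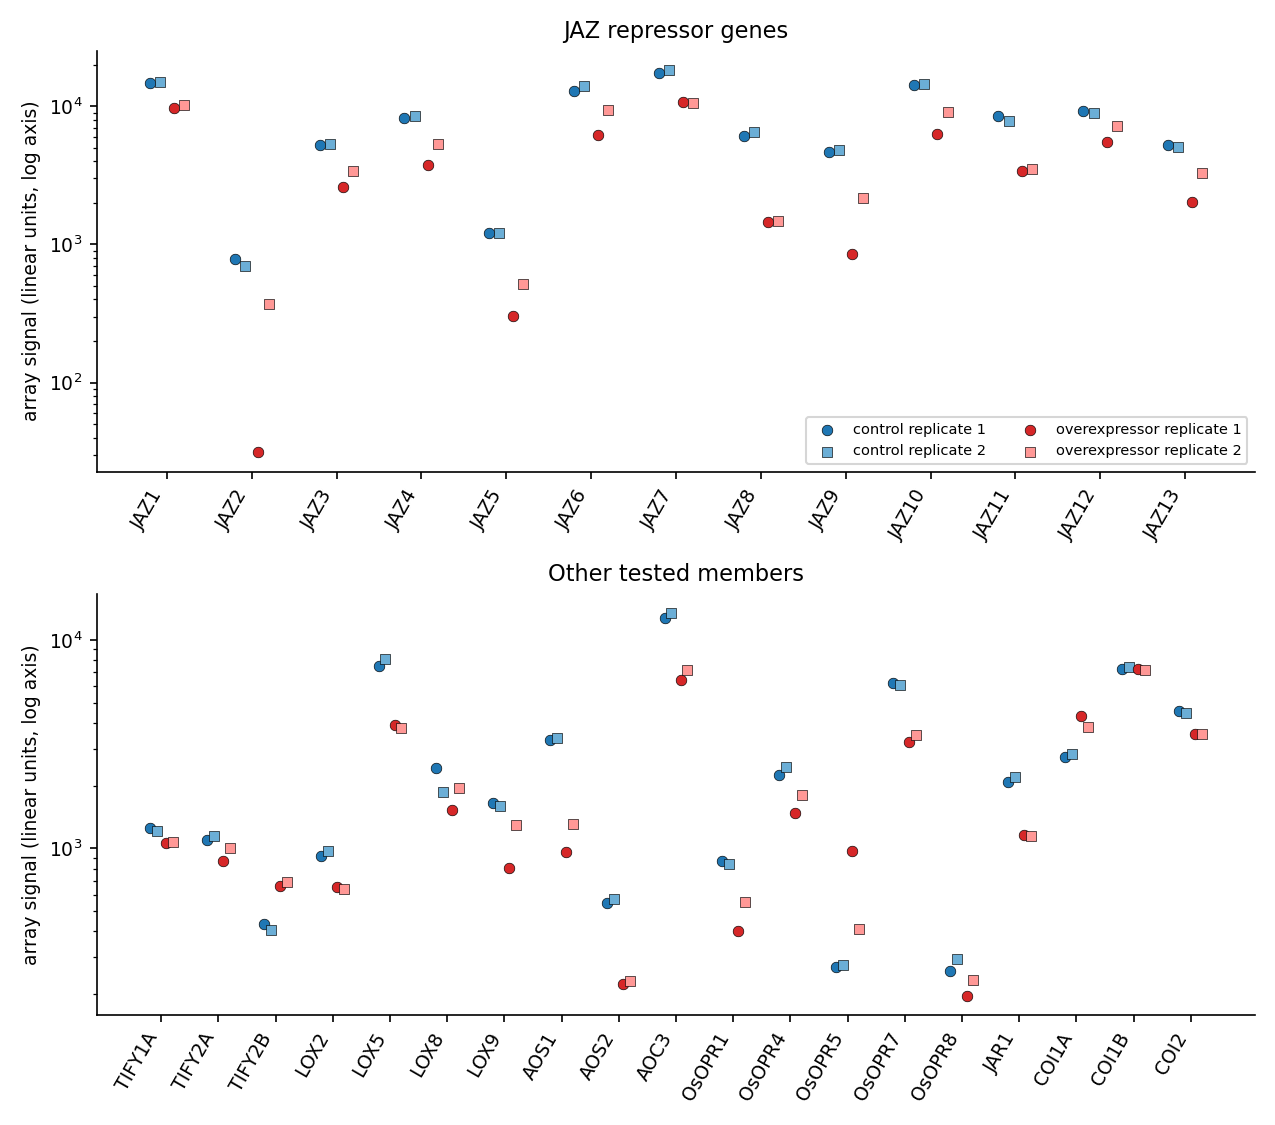
Array signal (y axis, linear units on a log axis) of each JAZ gene (top) and of the other tested members (bottom) on the 4 arrays, 1 point per array. All 13 JAZ genes have both overexpressor points below both control points, while COI1A, TIFY2B and OsOPR5 have them above.

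**Figure D4:**
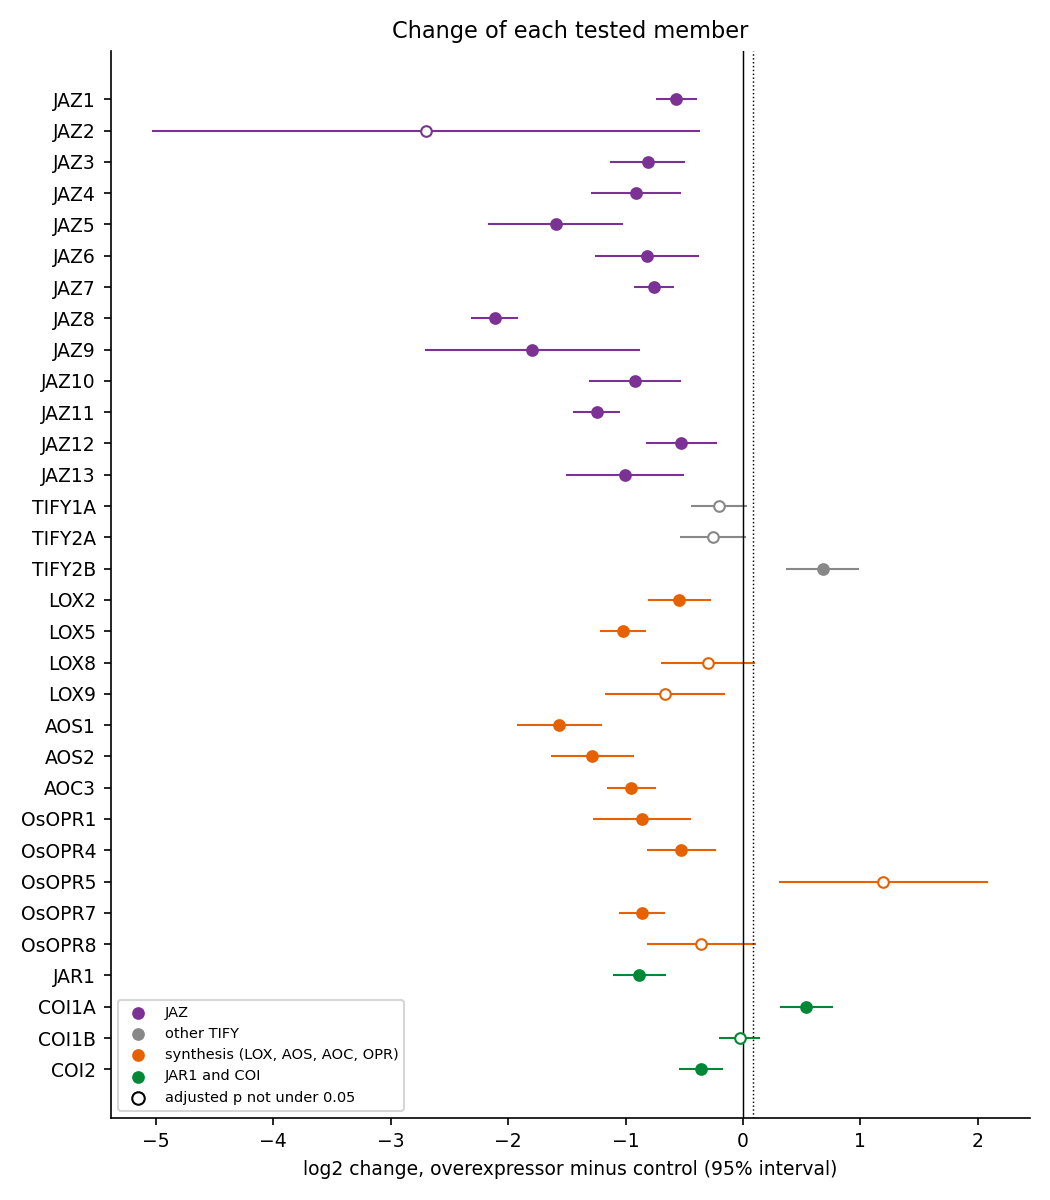
Log2 change (overexpressor minus control, x axis) with its 95% interval from limma for each of the 32 tested members (y axis), filled where the adjusted p is under 0.05, with a dotted line at the median of all tested probe sets (0.08). The interval of JAZ2 runs from -5.03 to -0.37, and that of JAZ8 from -2.32 to -1.91.

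The JAZ genes read differently on the 2 overexpressor arrays. Overexpressor replicate 1 read below replicate 2 for 12 of 13 JAZ genes, with a median log2 difference of -0.50, and for 13 of the 19 other tested members (-0.07). Over all tested probe sets it read lower for 53.0%, with a median difference of -0.02. In the control pair 8 of 13 JAZ genes read lower on replicate 1, with a median difference of -0.01. A measure of RNA quality, the log2 ratio of 3′ to 5′ probe sets, was lowest on overexpressor replicate 2 for actin (1.92, against 2.20 to 2.32 on the other arrays) and cyclophilin (0.771, against 1.01 to 1.26), and near -0.59 there for ubiquitin (against -0.57 to -0.50). Its part in these values was not tested. The JAZ median was -1.18 without overexpressor replicate 2 and -0.66 without overexpressor replicate 1. JAZ7 alone among the JAZ genes read higher on overexpressor replicate 1. The gap was small for JAZ7, JAZ8 and JAZ11, with overexpressor arrays at most 1.03-fold apart, and for JAZ1 (1.06-fold). Among the enzymes LOX2, LOX5, AOS2 and JAR1 likewise differed at most 1.04-fold between these arrays.

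**Figure D5:**
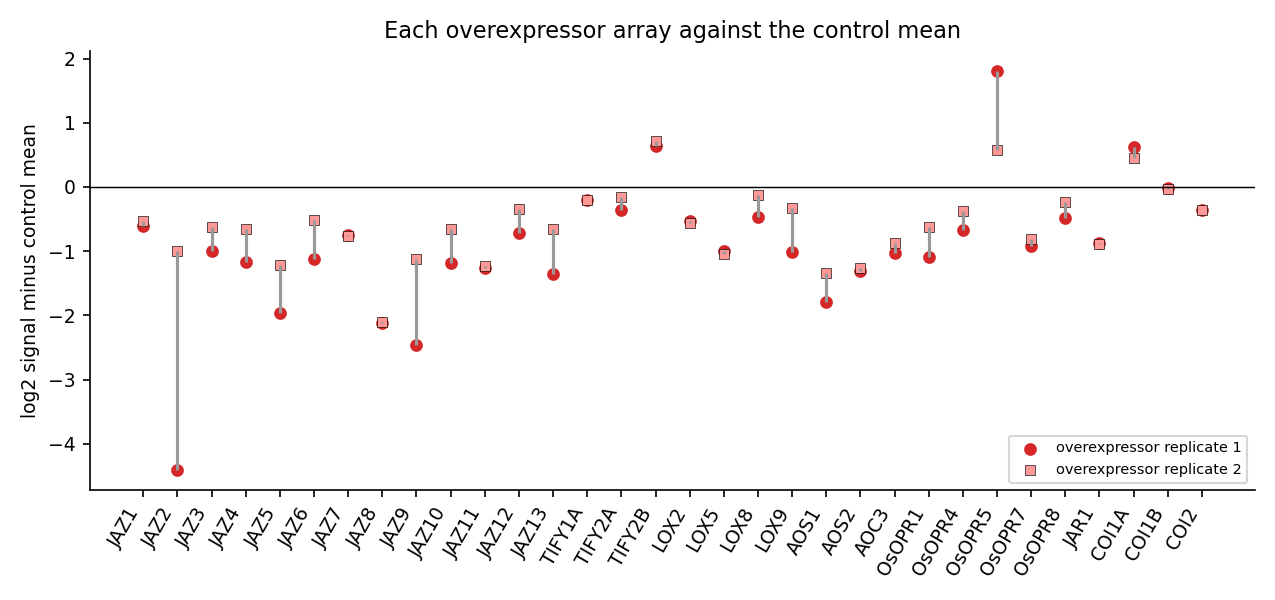
Log2 signal of each overexpressor array minus the control mean (y axis) for the 32 tested members (x axis), with a grey line joining the 2 arrays. Replicate 1 lies below replicate 2 for 12 of 13 JAZ genes, whereas both arrays almost coincide for JAZ7, JAZ8 and JAZ11.

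Of the 3 tested TIFY genes outside the JAZ group 1 was higher, and the others read lower in every pair of arrays without passing the test. TIFY1A, TIFY2A and TIFY2B encode GATA-type zinc finger proteins with a TIFY domain and are not known as jasmonate repressors. TIFY2B read 435 and 408 in the control leaves and 660 and 693 on the overexpressor arrays, a rise of 0.68 (SE 0.13, adjusted p = 0.0114), with groups apart. It was not past the threshold without control replicate 1 (0.0816) or control replicate 2 (0.113). TIFY1A read 1250 and 1209 against 1063 and 1071 (-0.20, 95% interval -0.44 to 0.03, adjusted p = 0.170), and TIFY2A read 1093 and 1142 against 869.5 and 1001 (-0.26, 95% interval -0.54 to 0.02, adjusted p = 0.147). TIFY2A had a change of -0.16 without overexpressor replicate 1 and -0.36 without overexpressor replicate 2. TIFY8 lay at background on all 4 arrays.

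Other genes around the pathway were taken from 5 lists of symbols, and a symbol can match an unrelated gene. Of 25 genes with a probe set 22 were tested, of which 5 were lower, 5 higher and 12 not past, with a median log2 change of 0.21. Over all tested probe sets 13.1% were lower and 15.4% higher, and beside those shares nothing is read from these small counts or from those of the single lists. Among the signalling partners 1 of 5 tested genes was lower, 1 higher and 3 not past. BHLH148, a transcription factor known to bind rice JAZ proteins, read 5046 and 5457 in the control leaves and 2270 and 3437 on the overexpressor arrays (-0.91, SE 0.19, adjusted p = 0.0147). TPR2, a corepressor of the TOPLESS family, rose from 2104 and 1974 to 2902 and 2961 (0.52, SE 0.09, adjusted p = 0.00715). NINJA1, the adaptor between JAZ proteins and such corepressors, read 3924 and 4080 against 4026 and 3895 (-0.01, 95% interval -0.20 to 0.17, adjusted p = 0.906), TPR3 had a change of 0.20 (adjusted p = 0.156) and JAMYB one of 0.39 (0.0787). BHLH148 lost its call without a trend of the spread (0.0679) and without control replicate 2 (0.0550), and TPR2 without control replicate 1 (0.0579) or control replicate 2 (0.0917).

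Of the genes that make or split hormone conjugates 3 of 13 tested were lower, 3 higher and 7 not past, not far from the 13.1% and 15.4% of all tested probe sets. ILL6, of the amidohydrolase family that in Arabidopsis splits jasmonate and auxin conjugates, fell from 745 and 726 to 229 and 240 (-1.64, SE 0.14, adjusted p = 0.000782). Its relatives ILL5 and ILL1 rose by 0.56 (SE 0.09, adjusted p = 0.00680) and 0.38 (SE 0.09, adjusted p = 0.0281). Among the GH3 genes, several of which join auxin to amino acids, GH3-8 (-0.89, SE 0.16, adjusted p = 0.00947) and GH3.2 (-1.01, SE 0.27, adjusted p = 0.0340) were lower and GH3.1 was higher (1.14, SE 0.21, adjusted p = 0.00972). Without control replicate 1 ILL5 (0.0679), ILL1 (0.271), GH3-8 (0.101), GH3.2 (0.0786) and GH3.1 (0.0758) lost the call, and without control replicate 2 ILL5 (0.0571), ILL1 (0.119) and GH3.2 (0.134). ILL1 and GH3.2 also lost it with no filter (0.0512 and 0.0669) and without a trend of the spread (0.0967 and 0.096), as did ILL1 with median centring (0.0691) and GH3.2 after spike scaling (0.0662).

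Of the 2 genes found by symbol for precursor supply, SSI2, a desaturase of fatty acids, had a change of -0.33 (SE 0.09, adjusted p = 0.0370). That call ended after spike scaling (-0.01, adjusted p = 0.930), with no filter (0.0695), with quantile normalization (0.0505), without a trend of the spread (0.12) and without control replicate 1 (0.252) or control replicate 2 (0.237). DAD-1, a symbol also used for an unrelated cell death gene, read 4397 and 5060 against 4408 and 5155 and did not pass. It may not be a precursor gene. No gene of beta-oxidation or of the competing hydroperoxide lyase branch was found by symbol.

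The 2 defence genes found read higher in every pair of arrays, as did 39.7% of all tested probe sets. The lectin gene salT read 5825 and 6559 in the control leaves and 21808 and 9638 on the overexpressor arrays (1.23, SE 0.34, adjusted p = 0.0383). Overexpressor replicate 1 was the higher of the pair. PBZ1, a pathogenesis-related protein gene of class 10, read 8581 and 8536 against 14126 and 8639 and did not pass (0.37, 95% interval -0.14 to 0.87, adjusted p = 0.234). The call of salT ended without control replicate 1 (0.0986), without control replicate 2 (0.0635), with no filter (0.0813), without a trend of the spread (0.116) and with the mean of its probe sets (0.0502).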

How the data were processed

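Biotin-labelled RNA of 4 leaf samples was hybridised to single-colour arrays, per the labels' protocols. The deposited table holds a linear signal intensity per probe set (57381 of them) and array. Their software is not stated in the labels used here. The authors' values were brought to a common level (mean of 500.1 after trimming 2% at each end) and were kept as deposited. Genes came from the platform annotation (22436 probe sets with 1 gene, 95 with several, 34850 unlisted), and names from the RefSeq table of assembly ASM3414082v1, used for names and neighbours. The files name no genome build, so no coordinates are printed.

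A pseudocount of 3.6 (the 10th percentile) was added, log2 taken, and 123 control probe sets left out. Fold changes on this scale understate those of dim transcripts. Probe sets with a mean at or above the median (a signal of about 57.8) were tested, 28629 in all, by linear models in limma 3.58.1 (R 4.3.3) with moderated variances that follow the signal. P-values are two-sided, adjusted by Benjamini-Hochberg over all tested probe sets, with a threshold of 0.05. In 20 simulations with 200 changed probe sets changes of 1.5-fold were called in 4.33%, of 2-fold in 30.3% and of 4-fold in 72.7%. Of the simulated calls 5.79% were false. In the data 8170 probe sets (28.5%) were called. The adjusted p depends on how many probe sets change, so the simulated rates do not describe the calls made here. Every member with a probe set was named, and of the 5 pathway lists the genes past the threshold, or the 2 brightest of a list with none. NINJA1, TPR3, JAMYB, PBZ1, DAD-1 and the marker genes RTS and IRT1 were named after their values were seen. The members and lists were chosen with earlier results of these data known. Alternatives changed the pseudocount, scaling, filter, model, probe sets and arrays.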

Additional observations from a re-analysis of the deposited data

How the results depend on the processing

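With 2 arrays per group, the smallest two-sided p of an exact permutation test is 0.33, so every call rests on the spread shared between probe sets in limma. Of 24 called members 11 kept the call in every alternative that gave them a value (JAZ3, JAZ5, JAZ7, JAZ8, JAZ11, LOX5, AOS1, AOS2, AOC3, OsOPR7 and JAR1). The lower count of 22 fell to 13 without a trend of the spread, where 1 member was higher and 6 JAZ genes lower. With 1 array left in a group the spread comes from the other pair alone, so calls gained in such fits add no support. Leaving out each array in turn gave 16 to 26 members lower, 0 to 3 higher and 10 to 13 JAZ genes lower. The median of the members (-0.81) was -0.50 after spike scaling, where 4 were higher. Without probe sets whose names mark several transcripts 27 members had a value. Of these 1 was higher, since the only probe set of TIFY2B drops out. Over all tested probe sets 3760 were lower and 4410 higher. These counts were 2114 and 11571 after spike scaling, 2461 and 2580 without a trend, and 1607 to 5233 lower and 1412 to 6152 higher when an array was left out. Spike scaling turned TIFY1A (0.11), TIFY2A (0.0553), LOX8 (0.0134) and COI1B (0.28), and COI1B also turned under quantile normalization (0.0101) and cyclic loess (0.0301). Deviations of same-numbered arrays correlated at -0.02 over all tested probe sets, so no pairing was seen. A single correlation cannot exclude one that touches only some genes. With the replicate number as a block 24 members were lower and 3 higher, and JAZ2 (0.0228), LOX9 (0.0284) and OsOPR5 (0.0182) passed and no call was lost among members, while SSI2 lost its call (0.0550). The cause of these shifts was not tested. Signals near background limit JAZ2 and the 6 members that were not tested.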
